A study of Rattus norvegicus with 56 samples.

Results

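The comparison described here is that of stimulated with sham-treated old, cognitively impaired rats in the parietal cortex, 48 hours after intermittent theta burst stimulation (iTBS). Its members are the 7 first arrays labelled as cortex of aged impaired (AI) animals, 3 after iTBS and 4 after sham, out of 56 arrays in the series, of which 24 are first arrays of cortex. The animals were male Long-Evans rats aged 26 to 27 months that had performed poorly in the Morris water maze, a test of spatial memory. Each array carried the RNA of 1 animal, so the replicates are separate animals. All received light isoflurane anaesthesia, dexmedetomidine sedation and its reversal with Antisedan. For iTBS the coil was held 8 mm above the skull and aimed at the corpus callosum, and for sham it was kept away from the head. The controls therefore carry the effect of these agents and of handling, and no unhandled impaired animal was compared. The other groups compared below are the cortex of aged unimpaired (AU) rats of the same age, 5 after iTBS and 4 after sham. The hippocampus of the same 7 impaired animals is compared too. The fits also held young rats aged 6 to 7 months, after iTBS or sham, and the hippocampus of the AU rats. These arrays entered the detection filter and the spread behind each standard error and limma p, but are not described.

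Theta burst stimulation is a form of repetitive transcranial magnetic stimulation in which short bursts of magnetic pulses are given at the theta rhythm, and its intermittent form is used to raise cortical excitability for a time that outlasts the pulses. Neuronal firing switches on immediate early genes such as Fos and Arc within minutes, and their transcripts are short-lived. Microglia, the resident macrophages of the brain, take on a more reactive state with age and carry receptors such as P2ry12, P2ry13 and Gpr34 that sense nucleotides and lipids released by neighbouring cells.

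A second array labelled iTBS animal 2 cortex was left out. Over the 300 probes that best separate individual animals, its correlation was -0.08 with the first array of that animal and 0.95 with the cortex of sham animal 2. Each of the 7 first arrays correlated best with the hippocampus of its own animal, with values of 0.82 to 0.90 against at most 0.36 for any other animal. Sham animal 1 and iTBS animal 1 lay on 1 slide and the other 5 animals on another, and slides were scanned on different days. Between 61.3% and 63.1% of probes were well above background after iTBS and between 63.0% and 66.4% after sham. The median absolute difference between an iTBS and a sham animal over all probes was 0.33 (12 pairs), that between sham animals was 0.35 (6 pairs), and animals on the same slide differed by 0.27 (11 pairs) against 0.39 on different slides (10 pairs). The labelled region matched its markers: the mean normalized log2 signal of 11 hippocampal marker genes lay between 0.86 and 1.72 in the 7 cortex samples and between 4.04 and 4.47 in the hippocampus of the same animals.

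No probe passed the test. Of 32592 probes tested with limma, 0 (0.0%) had an adjusted p under 0.05 and the smallest adjusted p was 0.115, for Ehf, which encodes an epithelial transcription factor. At an unadjusted limma p under 0.05 there were 1266 probes (3.88%), 646 higher (1.98%) and 620 lower (1.90%) after iTBS. The 3 iTBS animals lay above all 4 sham animals at 759 probes (2.33%) and below all of them at 575 (1.76%). The difference was above 0 at 47.9% of probes and its median was -0.012 on the log2 scale. The median standard error was 0.26 and the median 95% confidence interval reached 0.54 to either side. When limma weighted the arrays by quality, with weights of 3.76 for iTBS animal 3 and 3.81 for sham animal 3 against 0.31 to 1.45 for the other 5, 617 probes passed. An exact two-sided permutation test over 3 and 4 animals has 35 divisions and cannot give a p below 0.0571. It gives that value whenever the groups do not overlap, so for genes chosen by non-overlap it is no further support. All differences given below are iTBS minus sham in normalized log2 signal, and none passed the adjusted threshold.

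Of 25954 probes well above background on all 7 arrays, 562 were higher and 330 lower in every iTBS animal than in every sham animal. Over all tested probes these shares were 2.33% and 1.76%. Named genes among them numbered 329 higher and 178 lower, and the 10 with the smallest unadjusted limma p in each direction are described. The largest of the 10 higher differences by size was that of Syce3, a component of the synaptonemal complex of meiotic chromosomes, at 0.999 ± 0.29 (SE). It measured -0.62, 0.62 and -0.26 after iTBS and -0.82, -1.02, -1.27 and -1.22 after sham, so iTBS animal 2 stood above the rest, and the difference was 0.65 without that animal. The iTBS values of Plac9, which encodes a small secreted protein, were 3.28, 3.51 and 3.37, and the sham values were 2.70, 2.82, 2.47 and 2.84. The iTBS animals lay in a narrow band above the sham animals, with a difference of 0.68 ± 0.16 (SE; limma adjusted p = 0.683), and the difference in AU cortex was -0.15.

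The neuronal genes of this set were Neurod1, a transcription factor of differentiating neurons, and Cpne4, a calcium-dependent membrane-binding protein. Neurod1 measured 4.00, 3.94 and 3.96 after iTBS and 3.62, 3.81, 3.21 and 2.68 after sham. The iTBS animals were nearly alike and the sham animals were spread over more than 1 log2 unit, with sham animal 4 the lowest (difference 0.64 ± 0.21). Cpne4 measured 4.07, 4.09 and 3.75 after iTBS and 3.58, 3.54, 2.95 and 2.85 after sham, a difference of 0.74 ± 0.24. Svbp, the small binding partner of vasohibin that takes part in removing the terminal tyrosine of tubulin, measured 5.74, 5.96 and 5.69 after iTBS and 5.53, 5.23, 5.31 and 5.46 after sham. Its difference was 0.41 ± 0.11. The remaining members were Wfdc11 (0.67), Ccdc126 (0.66), Txndc9 (0.63), C15h14orf119 (0.32) and the microglial receptor Gpr34 (0.50), described with its cell type below. All 10 had a limma adjusted p between 0.683 and 1.

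Of the 10 lower genes, Gldn had the largest difference by size. It encodes gliomedin, which gathers sodium channels at nodes of peripheral nerve. It measured 1.26, 0.06 and 0.82 after iTBS and 1.91, 1.85, 1.58 and 2.53 after sham, a difference of -1.25 ± 0.33 (limma adjusted p = 0.837). Mmp9, a matrix metalloproteinase that cleaves extracellular matrix at synapses, measured -0.44, -1.60 and -0.34 after iTBS and -0.14, 0.17, 0.71 and 0.28 after sham. iTBS animal 2 was the lowest for both genes, and the difference of Mmp9 was -1.05 ± 0.34 with all animals and -0.64 at its smallest when 1 animal was left out.

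Sprr1a, a small proline-rich protein first known from skin and induced in injured neurons, measured -0.05, -0.25 and -0.05 after iTBS and 0.74, 0.63, 0.64 and 1.08 after sham. Its difference was -0.88 ± 0.25 and stayed between -0.93 and -0.78 whichever animal was left out. Clec14a, a lectin-like receptor of endothelial cells, differed by -0.68 ± 0.17 at the chosen probe and by -0.26 at its other probe. The remaining members were Rnf225 (-1.03), Pcgf2 (-0.63, with 0.069 at a second probe), Asah2, a ceramidase (-0.62, with -0.082 at a second probe), Lipe, the hormone-sensitive lipase (-0.59, with -0.21 at a second probe), Adal (-0.46, with -0.22 and 0.83 at 2 other probes) and Zfp865 (-0.36). For Pcgf2 and Adal the probes of the gene thus disagreed in sign.

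**Figure D1:**
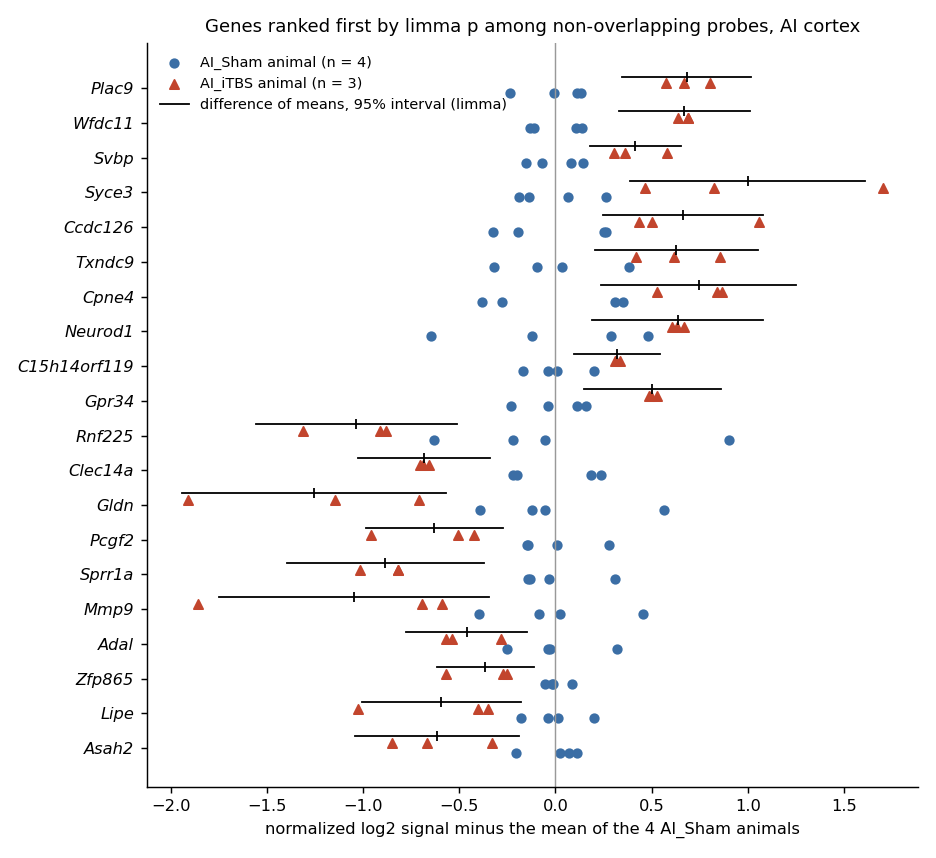
Values of the 20 genes with non-overlapping groups and the smallest limma p, one gene per line, as normalized log2 signal minus the mean of the 4 sham animals. Circles are sham animals, triangles iTBS animals, and the black line is the difference of means with its 95% confidence interval from limma. Every gene shows the iTBS animals on one side because the genes were chosen that way, and the 2 groups nearly touch for Adal (-1.05 against -1.02) and Txndc9 (4.97 against 4.94).

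A further set consisted of probes well above background in all animals of one group and in none of the other. Of 32592 probes tested, 14 were so after iTBS only, 6 of them with a gene symbol. After sham only there were 59, 25 of them with a symbol. Sham arrays had 63.0% to 66.4% of all probes well above background, and iTBS arrays 61.3% to 63.1%. Because the dim group has only a bound at the probes of this set, the change is given as a least fold. After iTBS, Or5h17c, an olfactory receptor gene, was at least 2.28-fold higher, Smptb at least 2.07-fold, Slc7a9, a subunit of an amino acid transporter, at least 2.03-fold and Spt1 at least 1.95-fold. A probe of Rasgrf1, an exchange factor that links calcium entry to Ras in neurons, was at least 2.08-fold lower, LOC102548752 at least 1.86-fold, Pde6h, a phosphodiesterase subunit of cone photoreceptors, at least 1.82-fold and Sphk1, the kinase that makes sphingosine 1-phosphate, at least 1.69-fold lower. All lay near the detection limit and their limma adjusted p ranged from 0.837 to 1. The Rasgrf1 probe measured -2.64, -2.91 and -2.81 after iTBS and -1.07, -1.03, -2.43 and -1.33 after sham, so sham animal 3 lay close to the iTBS animals. The other probes of Rasgrf1 differed by -0.27 ± 0.29, where all 7 animals were above background, and by -0.46 ± 0.47.

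Microglial marker genes had mostly higher means after iTBS. Of 18 genes listed, 15 were tested, 12 had a higher mean after iTBS, 4 had an unadjusted limma p under 0.05 (all higher, against 1.98% of all probes) and 4 did not overlap between the groups (against 2.33%). Their median difference was 0.30, against -0.012 over all probes. The mean level of the 14 markers measured on every array was 4.39, 4.59 and 4.65 in the 3 iTBS animals and 4.34, 4.11, 4.19 and 4.49 in the 4 sham animals, so the groups overlapped at iTBS animal 1 and sham animal 4. In tissue, a change in the number of cells of a type and a change in the RNA per cell cannot be told apart.

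The 4 genes at an unadjusted p under 0.05 code for surface receptors and a lysosomal protease. Gpr34, a receptor for lysophosphatidylserine, measured 5.09, 5.04 and 5.05 after iTBS and 4.52, 4.32, 4.67 and 4.71 after sham, with a difference of 0.50 ± 0.17 (exact permutation p = 0.0571). Gpr34 was also chosen above by non-overlap, which fixes its permutation p at that value. P2ry13, an ADP receptor, measured 2.80, 2.92 and 2.83 after iTBS and 2.51, 2.32, 2.14 and 2.35 after sham. In both genes the groups were apart, and the difference of P2ry13 was 0.52 ± 0.19 (exact permutation p = 0.0571), while its other probe gave 0.10.

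Trem2, the lipid-sensing receptor that drives microglial phagocytosis, measured 5.78, 6.28 and 6.16 after iTBS and 5.51, 5.53, 5.51 and 5.82 after sham. iTBS animal 1 fell just below sham animal 4, and the difference was 0.48 ± 0.19 (exact permutation p = 0.114). Ctss, the protease cathepsin S, measured 8.07, 8.48 and 8.10 after iTBS and 7.53, 7.61 and 7.93 in sham animals 2, 3 and 4, its spot in sham animal 1 being marked as an outlier by the scanner software and dropped from the fit. Its difference was 0.53 ± 0.21 (exact permutation p = 0.1). The measured values of the groups did not overlap, and 0.1 is the smallest p that 3 against 3 animals can give. With a value missing, Ctss was not among the 4 markers counted as non-overlapping.

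Other markers were less clear. Aif1 and Tyrobp, a cytoskeletal protein and the signalling partner of Trem2, both differed by 0.40, with SE of 0.25 and 0.28. P2ry12, the other ADP receptor, differed by 0.47 with an SE of 0.95 in the fit over all cortex groups, although its values in these 7 animals did not overlap. Csf1r, the receptor for the growth factor that keeps microglia alive, and Cx3cr1, the fractalkine receptor, differed by -0.021 and -0.024 (95% intervals -0.64 to 0.60 and -0.82 to 0.77). Cd68, a lysosomal marker of activated phagocytes, differed by -0.25 ± 0.27. The median over the markers was above 0 under each alternative tried, from 0.097 to 0.47. The lowest value came with the repeat array, which matched sham animal 2, in place of iTBS animal 2.

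**Figure D2:**
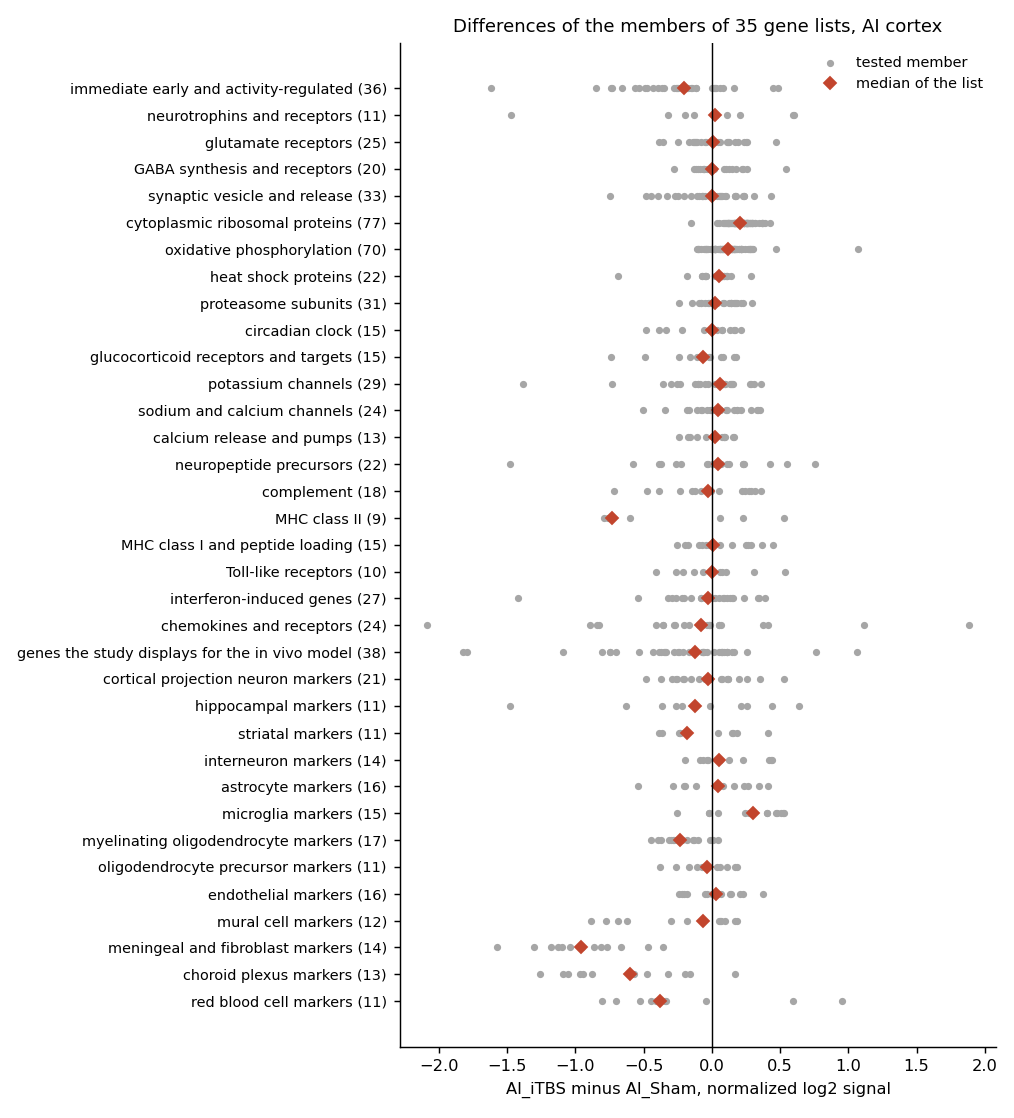
Difference between AI iTBS and AI sham cortex, in normalized log2 signal, of every tested gene of 35 lists (grey points, number of genes in brackets) and the median of each list (diamonds). Microglial (0.30) and ribosomal (0.21) medians lie to the right of 0, and those of the meningeal (-0.96), MHC class II (-0.74) and choroid plexus (-0.60) lists lie to the left.

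Shown are the stretches from 200 bases before to 20 bases after the annotated start of 4 microglial genes. These were the markers at an unadjusted limma p under 0.05. Many microglial genes are bound by the factor PU.1, whose core is GAGGAA. Capitals mark GAGGAA or its complement TTCCTC, searched on both strands. The sequences are from RefSeq on build GRCr8, at chrX:11785817-11786036 (minus strand) for Gpr34, chr2:145622765-145622984 (minus) for P2ry13, chr9:20151760-20151979 (minus) for Trem2 and chr2:185775196-185775415 (plus) for Ctss.
Gpr34: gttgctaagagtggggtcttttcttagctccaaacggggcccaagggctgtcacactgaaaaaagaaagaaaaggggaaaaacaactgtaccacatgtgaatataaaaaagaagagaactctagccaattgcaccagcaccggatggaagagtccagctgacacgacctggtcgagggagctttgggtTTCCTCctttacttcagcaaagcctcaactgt
P2ry13: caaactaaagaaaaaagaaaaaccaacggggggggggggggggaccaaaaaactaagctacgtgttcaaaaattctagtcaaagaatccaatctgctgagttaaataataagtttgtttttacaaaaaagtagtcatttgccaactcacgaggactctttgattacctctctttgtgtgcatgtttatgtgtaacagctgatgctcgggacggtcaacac
Trem2: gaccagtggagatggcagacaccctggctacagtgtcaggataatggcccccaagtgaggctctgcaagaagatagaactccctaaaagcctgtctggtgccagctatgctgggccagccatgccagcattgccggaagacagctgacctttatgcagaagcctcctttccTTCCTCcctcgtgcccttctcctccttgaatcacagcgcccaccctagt
Ctss: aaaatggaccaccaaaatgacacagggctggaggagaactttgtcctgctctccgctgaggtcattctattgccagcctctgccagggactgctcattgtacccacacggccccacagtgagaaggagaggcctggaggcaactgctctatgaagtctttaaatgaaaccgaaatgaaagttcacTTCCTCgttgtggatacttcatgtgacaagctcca
The letters occurred in 8 of the 10 tested microglial markers that had a promoter in the table (80.0%) and in 5693 of 27457 promoters of the same length (20.7%), and Gpr34, Trem2 and Ctss held 1 match each while P2ry13 held none. The match describes the letters of these windows.

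MHC class II genes, which present antigen and are expressed by microglia and by macrophages at the borders of the brain, lay the other way. Of 9 tested, 3 had a higher mean after iTBS and the median difference was -0.74. Cd74, the invariant chain that guides class II molecules, differed by -0.75 ± 0.72, RT1-Da by -0.75 ± 0.78 and RT1-Db1 by -0.60 ± 0.38. Ciita, the transactivator of the class II genes, measured -2.17, -3.52 and -2.29 after iTBS and -2.005, -1.94, -1.56 and -2.20 after sham, with a difference of -0.74 ± 0.33 (exact permutation p = 0.114). Its value is also the list median. Ciita was well above background in 2 iTBS and 4 sham animals and at least 1.28-fold lower. With 1 animal left out its difference lay between -0.98 and -0.31. iTBS animal 2 was the lowest for Ciita, RT1-Da, RT1-Db1 and Cd74. The mean level of the 8 genes measured on every array was 0.78, 0.17 and 0.81 after iTBS and 1.16, 0.55, 1.23 and 1.46 after sham, so sham animal 2 lay below 2 of the 3 iTBS animals. The median was -0.21 without iTBS animal 2, -0.42 without sham animal 4 and -0.17 with normexp background correction.

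The median difference of the other immune lists was -0.028 for 18 complement genes, 0.0044 for 15 MHC class I and peptide loading genes, -0.0017 for 10 Toll-like receptor genes and -0.028 for 27 interferon-induced genes, and 0 members of these 4 lists had an unadjusted limma p under 0.05, against 3.88% of all probes. Among 24 chemokines and receptors, 2 genes were higher and 2 lower at that p, against 1.98% and 1.90% of all probes. The list median was -0.082, and it was -0.26 without sham animal 2 and 0.0096 without sham animal 4. Ccl21, a lymphoid homing chemokine, measured -0.88, -0.36 and -1.04 after iTBS and -1.34, -1.25, -2.14 and -2.75 after sham (1.11 ± 0.38). Ccl20 measured -4.73, -2.11 and -1.34 against -3.81, -4.92, -4.95 and -4.77, and was well above background in 2 iTBS and 0 sham animals, so it was at least 1.08-fold higher. Cxcl13, a B-cell attractant, was well above background in 0 iTBS and 2 sham animals and at least 1.77-fold lower. Ccl24, an eosinophil attractant, differed by -0.90 ± 0.41, and in both sham animal 2 stood far above the rest, at 0.43 for Cxcl13 and 0.54 for Ccl24.

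Genes of the cytoplasmic ribosome were slightly higher after iTBS, through 1 animal. Of 77 tested, 76 had a higher mean, against 47.9% of all probes, the median difference was 0.21, 4 were higher at an unadjusted limma p under 0.05 (against 1.98% of all probes) and 5 did not overlap between groups (against 2.33%). The mean level was 9.29, 9.97 and 9.47 after iTBS and 9.14, 9.53, 9.32 and 9.47 after sham. iTBS animal 2 was the highest of the 7 for 75 of the 77 genes. Without that animal the median was 0.0094, with 40 of 77 higher. With all 7 animals it was 0.11 with 75th percentile scaling (70 of 77 higher) and 0.088 with quantile normalization (67 higher). Normexp background correction gave 0.097 (64 higher). Rps6, the small-subunit protein phosphorylated downstream of mTOR, measured 9.08, 9.21 and 8.95 after iTBS and 8.82, 8.77, 8.62 and 8.93 after sham, a difference of 0.29 ± 0.13. Rps15a differed by 0.39 ± 0.15, Rps18 by 0.34 ± 0.15 and Rps15 by 0.28 ± 0.14.

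The transcripts of ribosomal proteins are known for a run of pyrimidines at their 5′ end through which mTOR governs their translation. The stretches from 40 bases before to 20 after the annotated start of the 4 genes are given to show that run, in capitals where at least 6 C or T letters in a row span the start. RefSeq places them on GRCr8 at chr1:181860265-181860324 (minus strand) for Rps15a, chr5:106420521-106420580 (minus) for Rps6, chr20:4933705-4933764 (plus) for Rps18 and chr7:10068096-10068155 (minus) for Rps15.
Rps15a: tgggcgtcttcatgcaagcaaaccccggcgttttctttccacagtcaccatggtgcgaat
Rps6: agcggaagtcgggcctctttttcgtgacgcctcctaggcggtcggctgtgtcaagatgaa
Rps18: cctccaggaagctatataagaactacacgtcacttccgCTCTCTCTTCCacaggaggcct
Rps15: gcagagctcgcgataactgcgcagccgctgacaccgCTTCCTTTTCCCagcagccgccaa
Rps18 held a run of 11 bases and Rps15 a run of 12. In Rps15a a run of C and T letters ends just before the annotated start, and in Rps6 one lies further upstream. Neither was counted, so the result depends on where the start is annotated. A run spanned the start of 34 of 61 ribosomal genes (55.7%) and of 2226 of all 27457 promoters (8.11%).

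Oxidative phosphorylation genes, which build the respiratory chain, had a median difference of 0.12, with 57 of 70 tested higher. The list mean was 7.94, 8.26 and 8.11 after iTBS and 7.75, 8.09, 8.02 and 8.10 after sham, again with iTBS animal 2 the highest. Ndufa2, a subunit of complex I, measured 6.21, 6.31 and 6.26 after iTBS and 5.88, 5.92, 6.07 and 6.11 after sham (0.26 ± 0.12). The list median was -0.019 with normexp background correction, 0.0095 with quantile normalization and 0.026 without iTBS animal 2.

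**Figure D3:**
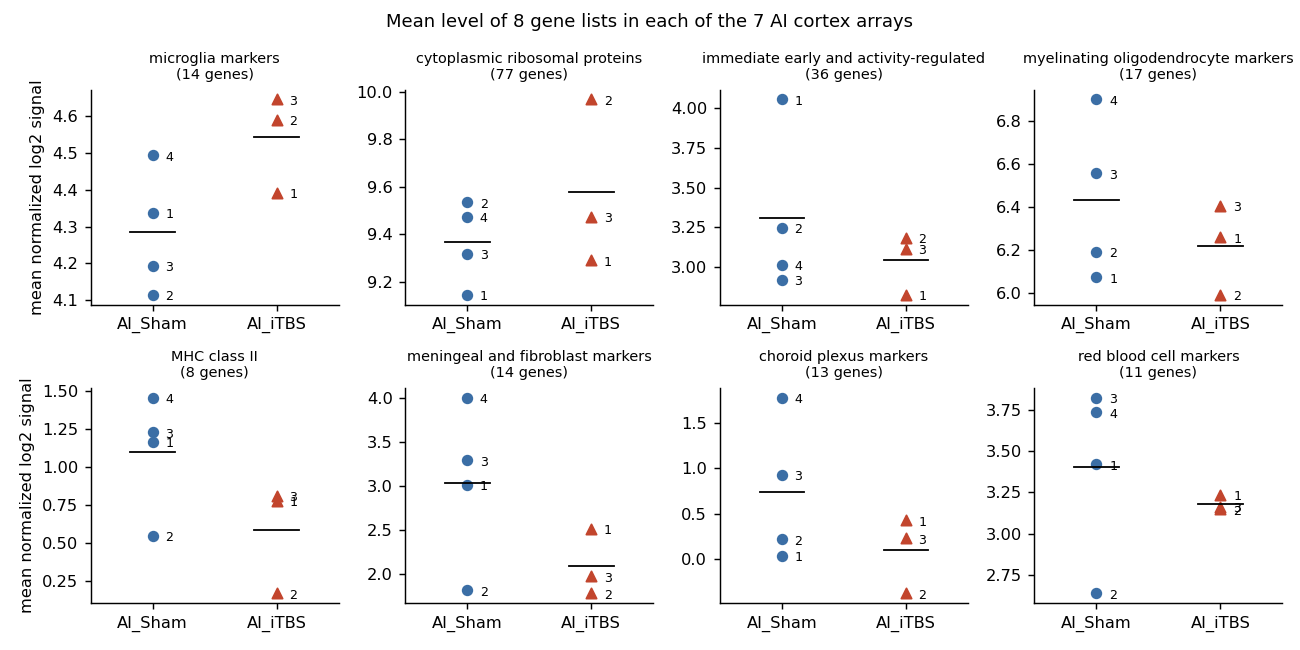
Mean normalized log2 signal of 8 gene lists in each of the 7 AI cortex animals (circles sham, triangles iTBS, numbered by animal), with the group mean as a line and an axis of its own for each list. iTBS animal 2 is highest for the ribosomal list (9.97), sham animal 1 for the immediate early list (4.06), and sham animal 4 for the meningeal (4.01), choroid plexus (1.78) and myelin (6.90) lists.

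No immediate early or activity-regulated gene passed the test 48 hours after iTBS, and 1 sham animal stood apart. Of 36 tested, 8 had a higher mean after iTBS and the median difference was -0.20. Sham animal 1 was the highest of the 7 animals for 25 of the 36 genes. Fos measured 0.78, 1.69 and 1.79 after iTBS and 4.22, 2.16, 1.07 and 1.20 after sham. Arc, which encodes a protein that regulates synaptic receptor turnover, measured 6.02, 6.84 and 7.19 after iTBS and 8.78, 7.17, 6.24 and 6.68 after sham. Sham animal 1 was thus more than 1 log2 unit above every other animal for both. The median over the list without sham animal 1 was 0.0056, with 18 of 36 higher.

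Atf3, a stress-responsive transcription factor, was the only member at an unadjusted limma p under 0.05. It measured -0.21, -0.65 and 0.21 after iTBS and 3.90, -0.54, 0.24 and 1.99 after sham (-1.62 ± 0.72, exact permutation p = 0.229), a difference carried by sham animals 1 and 4. Bdnf, the activity-dependent neurotrophin, measured 2.18, 1.88 and 2.24 after iTBS and 2.65, 2.03, 1.87 and 1.74 after sham, with a difference of 0.028 ± 0.24. Hspa1a, the inducible heat shock protein, measured 2.35, 2.42 and 2.46 after iTBS and 4.11, 2.38, 2.84 and 3.06 after sham (-0.69 ± 0.28), so the same sham animal was highest. Within the slide of the other 5 animals the median of the immediate early list was 0.048, and on the slide that held sham animal 1 and iTBS animal 1 it was -0.998.

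**Figure D4:**
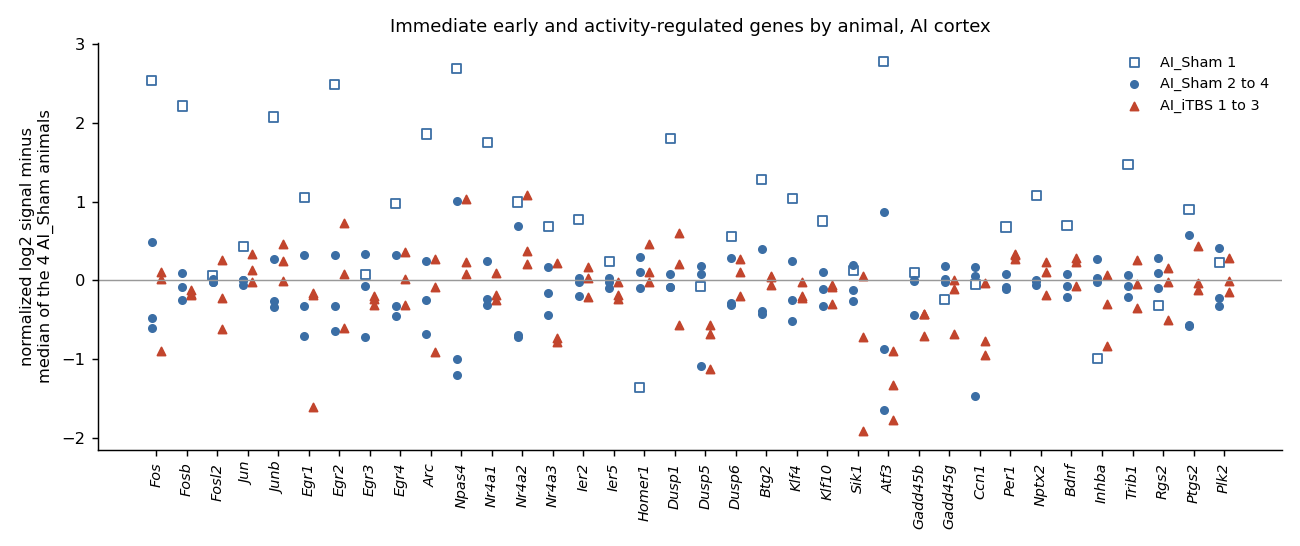
Normalized log2 signal of 36 immediate early and activity-regulated genes in each AI cortex animal, minus the median of the 4 sham animals. Open squares are sham animal 1, circles the other sham animals and triangles the iTBS animals. Sham animal 1 lies above the other 6 animals for 25 of the 36 genes, among them Fos (4.22) and Arc (8.78).

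Markers of tissue that borders the cortex were lower after iTBS in most genes, with wide spread among sham animals. All 14 meningeal and fibroblast markers tested had a lower mean, with a median difference of -0.96, and 0 had an unadjusted limma p under 0.05. The list mean was 2.51, 1.79 and 1.98 after iTBS and 3.02, 1.82, 3.30 and 4.01 after sham, and sham animal 4 was the highest of the 7 in all 14 genes. Igf2, a growth factor made by the meninges, measured 4.45, 3.35 and 3.80 after iTBS and 5.68, 3.83, 5.78 and 6.47 after sham (-1.57 ± 0.81). Crabp2, a retinoic acid binding protein, was the only member whose groups did not overlap (-0.86 ± 0.47). The median was -0.64 without sham animal 4 and -1.41 without sham animal 2.

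Choroid plexus markers had a median of -0.60, with 1 of 13 higher, and sham animal 4 was the highest in 11. It was -0.28 without sham animal 4 and -0.36 without iTBS animal 2. Ttr, the transthyretin made by the choroid plexus, measured 5.37, 3.95 and 5.68 after iTBS and 4.05, 5.76, 6.35 and 8.21 after sham. Aqp1, a water channel of that tissue, differed by -0.60 ± 0.26 (exact permutation p = 0.114). Red blood cell markers had a median of -0.38, with 2 of 11 higher, and -0.13 without sham animal 4 or without iTBS animal 3. Myelinating oligodendrocyte markers had a median of -0.23, with 2 of 17 higher, and sham animal 4 was the highest in 15. Without sham animal 4 the myelin median was -0.040. The part of these tissues in the other differences was not tested.

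The medians of the remaining cell type lists lay between -0.18 and 0.053. The median difference was 0.041 for 16 astrocyte markers, 0.028 for 16 endothelial markers, -0.067 for 12 mural cell markers, -0.033 for 11 oligodendrocyte precursor markers, 0.053 for 14 interneuron markers, -0.032 for 21 cortical projection neuron markers, -0.18 for 11 striatal markers and -0.13 for 11 hippocampal markers. The projection neuron list had 1 member at an unadjusted limma p under 0.05. Calb1, the calcium buffer calbindin, measured 4.08, 3.42 and 3.63 after iTBS and 3.65, 3.27, 3.04 and 2.77 after sham (0.53 ± 0.23), with the ranges overlapping.

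Among genes of synaptic transmission the median difference was 0.0067 for 25 glutamate receptor genes, 0.00027 for 20 genes of GABA synthesis and reception and 0.00081 for 33 synaptic vesicle genes. Grm4, a presynaptic metabotropic glutamate receptor, measured 5.34, 4.98 and 5.26 after iTBS and 5.39, 5.42, 5.66 and 5.74 after sham, a difference of -0.36 ± 0.17 (exact permutation p = 0.0571) with the groups apart. Syn3, a synapsin, was well above background in 2 sham and 0 iTBS animals and at least 1.43-fold lower (fitted difference -0.74 ± 0.23). Gdnf, the glial neurotrophic factor, was the member of smallest p among 11 neurotrophins and receptors (list median 0.024). It measured -3.79, -2.80 and -3.09 after iTBS and -3.19, -2.89, -0.40 and -0.53 after sham, so 2 of the sham animals lay with the iTBS animals. It was well above background in 0 iTBS and 2 sham animals and at least 1.70-fold lower.

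The medians of ion channel and peptide lists were 0.060 for 29 potassium channel genes, 0.046 for 24 sodium and calcium channel genes, 0.023 for 13 calcium release and pump genes and 0.048 for 22 neuropeptide precursors. The neuropeptide median was 0.22 without iTBS animal 1, 0.14 without sham animal 2 and -0.085 without iTBS animal 2. Pdyn, the precursor of dynorphin, measured 4.88, 5.13 and 5.30 after iTBS and 4.53, 5.12, 4.57 and 4.50 after sham (0.42 ± 0.20), with sham animal 2 among the iTBS animals.

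Lists of cell maintenance gave 2 further genes. Cdkn1a, the cell cycle inhibitor p21 and a glucocorticoid target, measured 3.102, 2.51 and 3.19 after iTBS and 4.11, 3.30, 3.23 and 4.07 after sham. The groups did not overlap, by a narrow margin, and the difference was -0.74 ± 0.27 (exact permutation p = 0.0571), in a glucocorticoid list of median -0.062. The medians of 22 heat shock, 31 proteasome and 15 circadian clock genes were 0.053, 0.024 and 0.0027. Of the proteasome genes, Psmb2 was the member of smallest p, with 7.35, 7.45 and 7.40 after iTBS and 7.17, 7.10, 7.16 and 7.25 after sham.

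The 38 tested genes that the study displays for its animals had a median of -0.12, with 14 higher. That list was chosen by the study on these samples and is not independent evidence of a direction. Rxrg, a retinoid receptor, measured 1.91, 4.15 and 2.73 after iTBS and 1.71, 2.06, 1.98 and 1.71 after sham (1.06 ± 0.48), with iTBS animal 2 far above the rest. Slc27a2, a fatty acid transporter, measured -3.39, 0.21 and -0.45 after iTBS and -0.80, -1.42, 2.62 and 2.08 after sham (-1.83 ± 0.79). It was well above background in 2 iTBS and 4 sham animals and at least 2.96-fold lower.

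The selection rule of the study's methods, based on an analysis of variance, a z-test and a ratio cutoff, took 40 of 45216 probes (0.0885%), 17 higher and 23 lower. Of these, 34 had an unadjusted limma p under 0.05, against 3.88% of all tested probes. Rule and limma used the same contrast on the same arrays, so this overlap is no independent support. Among those with a symbol, chosen after their values were seen, Dio3, the deiodinase that inactivates thyroid hormone, differed by 1.52 and the prostaglandin receptor gene Ptger3 by 1.10. On the lower side were Ogn, an extracellular matrix proteoglycan (-1.82), the adenosine receptor gene Adora1 (-0.82), Igfbp4 (-0.70) and the cholecystokinin receptor gene Cckbr (-0.68). Plac9, Cpne4, Ccdc126, Gldn and Sprr1a, described above and chosen there on the same values, were also taken.

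The same contrast was set against that of unimpaired animals of the same age, which share no array with it. In AU cortex 5 probes (0.0153%) passed the limma threshold (1 with the replicate number as a block and 0 with quantile normalization), 7.29% had an unadjusted p under 0.05 and 55.5% had a higher mean after iTBS. The difference in impaired minus that in unimpaired cortex passed the limma threshold at 6 of 32592 probes (0.0184%), and 2659 (8.16%) had an unadjusted p under 0.05. With the replicate number as a block 2 probes passed. The count was 17 without iTBS animal 1, 1 without iTBS animal 2, 6 without iTBS animal 3 and 3 without any one of the sham animals. The named ones were C2cd6 and Hs3st3b1, a heparan sulphate sulphotransferase, both chosen after their values were seen. C2cd6 measured -3.06, -1.96 and -2.19 in AI iTBS animals and -4.93 to -4.67 in AI sham animals, and in AU cortex -5.44 to -4.66 after iTBS and -3.35, -2.18, -2.09 and 0.35 after sham. Its difference of differences was 5.64 (limma adjusted p = 0.0139), and it was well above background in 2 AI iTBS and 2 AU sham animals and in 0 AI sham and 0 AU iTBS animals. Hs3st3b1 gave 4.28 (limma adjusted p = 0.0139), with 2 AI iTBS animals and 1 AU sham animal above background. These differences lay at the detection limit. Among AI and AU animals both genes were detected only in the groups where they were high. The detection filter thus favoured them, and their adjusted p is no independent support. With detection required in 12 animals, 0 probes passed. Against the detection limit, the change in AI cortex was at least 1.35-fold for C2cd6 and 1.30-fold for Hs3st3b1.

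The microglial and ribosomal lists had medians of opposite sign in impaired and unimpaired animals, which was not particular to them. Over all probes the AI and AU cortex differences correlated at -0.21. Oxidative phosphorylation (0.12 in AI and -0.29 in AU), astrocyte (0.041 and -0.35) and interneuron (0.053 and -0.30) medians also changed sign. Those of the immediate early (-0.20 and -0.18) and red blood cell (-0.38 and -0.41) lists kept it. The microglial median was 0.30 in AI and -0.17 in AU cortex, and the difference of differences had an unadjusted limma p under 0.05 for 6 of the 15 genes, among them Aif1, Trem2, Tyrobp, Gpr34 and Ctss, against 8.16% of all probes, and all 6 with a limma adjusted p over 0.5. The count was 2 without iTBS animal 2 and 3 with 75th percentile scaling or quantile normalization. It was 1 with the repeat array in that animal's place, a setting that puts an array matching sham animal 2 into the iTBS group. For Gpr34 the difference of differences was 0.73 (limma adjusted p = 0.541), with a difference of -0.22 in AU cortex. The ribosomal median was 0.21 in AI and -0.35 in AU, where 0 of 77 genes had a higher mean against 55.5% of all probes. The AU median was -0.12 with 75th percentile scaling, -0.076 with quantile normalization and -0.086 with normexp. The difference of differences had an unadjusted p under 0.05 for 29 of 77 genes, a count that was 0 with scaling to the 75th percentile, 1 with quantile normalization, 5 with normexp and 6 without iTBS animal 2. The meningeal median was -1.01 in AU and -0.96 in AI.

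In AU cortex the differences of the 10 higher genes of the non-overlapping set lay between -0.38 for Cpne4 and 0.37 for Wfdc11, and those of the 10 lower genes between -0.16 for Lipe and 0.65 for Mmp9. Since these genes were chosen by their values in AI cortex, the smaller or opposite values in AU cortex are given as a description. The largest difference of differences among them was -1.69 for Mmp9, and that of Pcgf2, a polycomb protein, was -1.10.

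The hippocampus of the same 7 animals allowed a test within animals. In hippocampus alone 1 probe (0.00297%) passed the limma threshold and 51.2% had a higher mean after iTBS. The iTBS difference in cortex minus that in hippocampus passed the limma threshold at 0 of 33714 probes (0.0%), with 639 (1.90%) at an unadjusted p under 0.05. The microglial median was 0.24 in hippocampus and the meningeal median -0.88, with 0 of 14 higher against 51.2% of all probes. The ribosomal median was -0.061. The MHC class II median was 0.37 in hippocampus against -0.74 in cortex, and 4 of 9 genes, RT1-Da, RT1-Db1, Cd74 and Ciita, had an unadjusted limma p under 0.05 for the regional difference, against 1.90% of all probes. The count was 1 without sham animal 4, without iTBS animal 1 or without iTBS animal 2. Gpr34 differed by 0.42 and Plac9 by 0.36 in hippocampus, and Neurod1 and Cpne4 by 0.016 and 0.037.

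**Figure D5:**
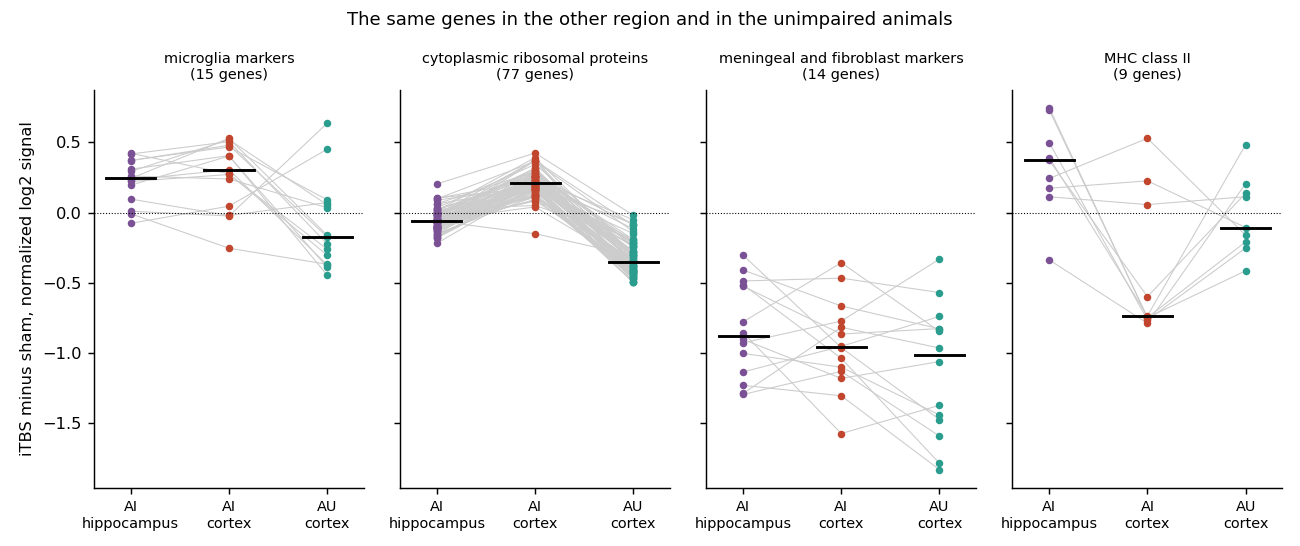
iTBS minus sham difference in normalized log2 signal for the genes of 4 lists in AI hippocampus, AI cortex and AU cortex. Each point is a gene, grey lines join the same gene and black bars are medians. Microglial medians are 0.24, 0.30 and -0.17 in that order, ribosomal medians -0.061, 0.21 and -0.35, meningeal medians -0.88, -0.96 and -1.01, and MHC class II medians 0.37, -0.74 and -0.11.

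Ehf was the probe closest to the threshold. It measured -2.61, -2.08 and -1.64 after iTBS and -5.39, -5.10, -4.46 and -4.62 after sham, a fitted difference of 2.78 ± 0.44. Only 2 of the iTBS animals and 0 of the sham animals were well above background, and against the detection limit it was at least 1.65-fold higher. Its limma adjusted p was 0.0388 without iTBS animal 1, when 6 probes passed, and 0.115 with all 7 animals. Among AI animals Ehf was detected only in the group where it was high. The detection filter thus favoured it, and its adjusted p is no independent support. Without iTBS animal 2 a single unnamed transcript passed, and 0 probes passed when any of the other animals was left out.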

How the data were processed

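RNA of single animals was labelled with Cy3 and hybridised to 1-colour Agilent rat 8x60K arrays, read with Agilent Feature Extraction 12.0.3.1 per the file headers. The deposited scanner files give each spot's background-subtracted intensity. A table deposited by the authors gives each spot a score, the z-transformed log signal over its array, which they made with DIANE 6.0. No replicates were pooled.

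From the scanner files, spots marked as outliers were dropped, copies of a probe averaged, and the log2 intensity of each array was z-scored over non-control probes then brought back to log2 units with the average SD over 48 first arrays (4.09), which gives the normalized log2 signal. Probes well above background in at least 3 of 24 cortex animals were tested with limma 3.58.1 (R 4.3.3) in a fit of 6 group means (18 residual degrees of freedom), with Benjamini-Hochberg adjustment over all 32592 probes and a call at an adjusted p under 0.05. Exact permutation tests used scipy 1.17.1. Of 45598 probes, 21109 (46.3%) took 1 gene symbol through RefSeq accessions, the others being unnamed here. One probe per gene, that of highest mean signal, entered the lists. The number of arrays limits the precision.

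Named genes were the 10 with the smallest limma p in each direction among probes above background on all 7 arrays with non-overlapping groups, up to 4 each way detected in all of one group and none of the other, list members at an unadjusted p under 0.05 (at most 4 a list, otherwise that of smallest p), and probes called when an animal was left out. The members and lists were chosen with earlier results of these data known. Deviations from the group mean correlated at 0.37, 0.39 and 0.14 between same-numbered iTBS and sham animals. Differently numbered animals were not compared, and same-numbered animals also shared a slide, so these values cannot show that the numbers pair animals. A fit with the number as a block was run as an alternative. Other alternatives were the scaling, background correction, filters, slide, repeat arrays, array weights, each animal left out, and the study's selection rule. For normexp, the median spot signal stood in for the mean signal, which was not used here. 1 array whose labels name conflicting groups was left out, as were repeat arrays except in alternatives. Values of some single genes are not reported here. The fits were tested on simulated data.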

Additional observations from a re-analysis of the deposited data

Results flagged for a closer look

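In 6 of 108 groups of 4 sham values tested, 1 animal stood apart from the other 3 by the Dixon criterion, which chance meets in about 1 group of 20. For Slc7a9, sham animal 1 measured -4.39 against -2.89 to -2.69 in the others, and an unnamed transcript measured -2.39 in that animal against -4.82 to -4.65. Ccl20 was also highest in sham animal 1, at -3.81 against -4.95 to -4.77. Sham animal 2 stood above the others for Pdyn, at 5.12 against 4.50 to 4.57, and for Ccl24, at 0.54 against -1.73 to -1.50. Trem2 measured 5.82 in sham animal 4 and 5.51 to 5.53 in the other sham animals.

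The iTBS difference in impaired minus that in unimpaired cortex passed the limma threshold for C2cd6 (5.64), Hs3st3b1 (4.28) and 4 unnamed transcripts (5.22, 4.02, 3.83 and -2.27). The first 5 of these were well above background in only 2 of the 3 AI iTBS animals, and the last in 0 of the 7 AI animals, so the probes with a call lay at the detection limit.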

How the results depend on the processing

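The count of 0 probes called became 617 with array weights, 9 with no detection filter, 2 with repeats averaged except that labelled iTBS animal 2, 1 with slide as a random block, 318 and 1 within the slides of 2 and 5 arrays, 40 by the study's rule, and 0 to 6 with 1 animal left out. It stayed 0 with the replicate block. Probes at an unadjusted p under 0.05 numbered 4538 with array weights, 2184 with no filter, 549 with a mean z-score above 0, 2147 and 2092 with slide as a fixed and a random block, 2011 within the slide of 2 arrays and 783 with the repeat of iTBS animal 2 in place of its first array, against 1266. The slide of 2 holds 1 animal a group, whose spread was taken from the other groups. The repeat labelled iTBS animal 2 matched sham animal 2. Settings that put it in place or average it in therefore mix a sham pattern into the iTBS group, and cannot show how firm a result is. Calls for impaired minus unimpaired were 0 with normexp, detection in 12 animals, a mean z-score above 0 or the repeat in place, 253 with array weights, 234 within the slide of 2, 51 with no filter, 1 with all repeats averaged, 2 with the replicate block and 1 to 17 with 1 animal left out, against 6. The block took the calls in unimpaired cortex from 5 to 1. The regional test gave 0 under each scaling, background and detection setting, repeats averaged, the block and each animal left out, and was not run under the others.

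The median of the proteasome list was -0.021 with 75th percentile scaling, -0.034 with quantile normalization, -0.016 with normexp and 0.070 within the slide of 5. That of potassium channels was -0.0037 with quantile normalization, -0.017 with normexp, -0.032 with array weights, -0.00066 within the slide of 5 and 0.21 within that of 2. MHC class II gave -0.17 with normexp and -0.35 with the repeat in place, microglia 0.097 with the repeat in place and 0.46 within the slide of 5, red blood cells -0.91 with array weights, cortical projection neurons -0.11 with the replicate block and striatal markers -0.0018 within the slide of 5. Within the slide of 2, the choroid plexus gave 0.14, heat shock 0.12, immediate early genes -0.998 and myelin 0.26. Leaving out 1 animal gave 0.0059 to 0.11 for glutamate receptors, -0.016 to 0.098 for potassium channels, -0.26 to -0.012 for striatal markers, -0.13 to 0.071 for oligodendrocyte precursors, -0.069 to -0.0026 for synaptic vesicles, -0.034 to 0.063 for heat shock, -0.076 to 0.27 for interneurons, 0.24 to 0.47 for microglia, 0.0064 to 0.070 for the proteasome, 0.0011 to 0.18 for sodium and calcium channels and -0.83 to -0.21 for MHC class II. The causes were not tested. Counted as pairs of a single gene and a setting, 1584 kept their direction, 44 gained a call and 9 turned. All settings use the same animals, so these pairs are not independent. C15h14orf119 (-0.18) and Gpr17 (0.16) turned with the repeat in place, and Gja1 (-0.085) with the authors' z-scores. Within the slide of 2, Ccl20 (-0.93), Ccl24 (0.064), Htr3a (-0.17) and Itpr3 (0.26) turned. Tlr2 turned within the slide of 5 (-0.071) and without sham animal 1 (-0.072, with a range of -0.072 to 0.87 over the animals left out).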
